A study of Mus musculus with 6 samples.

Results

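Pcsk1, Ndn, Maoa and Mc4r are genes that have been tied to the transcription factor Nhlh2 in the hypothalamus, and they are described here in the newborn mouse retina together with Pcsk2, the partner of Pcsk1. A probe set, of any suffix, was taken for 1 of these genes when its gene symbol was 1 of the 5. Of 22626 gene probe sets on the array, 10 qualified: 8 for Ndn, 1 for Maoa and 1 for Pcsk1. No probe set carried the symbol Pcsk2, Mc4r or Nhlh2 in the annotation table used, which does not hold 1555 of the gene probe sets. These 3 genes were therefore not analysed here, and with this annotation the loss of Nhlh2 RNA in the knockout retinas could not be checked.

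Total RNA came from retinas of 3 Nhlh2 knockout and 3 wildtype mice, all at postnatal day 4 (P4) and all on a mixed C57/129 background, and each sample was hybridised to 1 Affymetrix Mouse 430A 2.0 array. Each knockout mouse had a wildtype littermate that carries the same number, which gave 3 littermate pairs. The knockout allele, and whether other tissues lacked Nhlh2 as well, are not given in the sources used here. The levels are MAS 5.0 signals, a linear intensity for each probe set. The questions put to these data were whether the 5 genes are on in P4 wildtype retina, and whether they differ in each littermate pair of the knockout.

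Nhlh2 is a basic helix-loop-helix factor of developing and mature neurons, and mice without it become obese and have reduced fertility. In the hypothalamus, prohormone convertases cut precursors such as pro-opiomelanocortin into active peptides, and the melanocortin receptor Mc4r answers the peptide that restrains feeding. Pcsk1 and Pcsk2 encode those convertases. Ndn encodes necdin, a protein of post-mitotic neurons that is made from the paternal allele only, and Maoa encodes monoamine oxidase A, a mitochondrial enzyme that breaks down serotonin and noradrenaline. Helix-loop-helix factors bind DNA as dimers at the E-box, whose letters are CANNTG.

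On GRCm38.p6, RefSeq placed Ndn at chr7:62348277-62349928, Maoa at chrX:16619698-16687812 and Pcsk1 at chr13:75089420-75134861. RefSeq promoter windows of 300 bases were found for Ndn, Maoa, Pcsk1 and Pcsk2. Those of Ndn, Maoa and Pcsk2 begin 250 bases before the gene's start, while that of Pcsk1, chr13:75089607-75089906, lies inside the gene as placed here, so the bases before the outermost Pcsk1 start were not searched. The windows of Maoa and Pcsk2 each held 1 CANNTG, which reads as CANNTG on both strands, and those of Ndn and Pcsk1 held 0. The match in the Pcsk2 window was a CAGCTG, a form of the same motif, and the other 3 windows held 0 CAGCTG. Of 32851 windows of this length, 72.31% held a CANNTG and 16.3% a CAGCTG. The 250 bases before the start site are shown for Ndn and Maoa, the 2 genes whose signal was above the array median in wildtype retina, with the E-box in capitals. The Ndn stretch is chr7:62348027-62348276 and the Maoa stretch is chrX:16619448-16619697, both on the plus strand.
Ndn: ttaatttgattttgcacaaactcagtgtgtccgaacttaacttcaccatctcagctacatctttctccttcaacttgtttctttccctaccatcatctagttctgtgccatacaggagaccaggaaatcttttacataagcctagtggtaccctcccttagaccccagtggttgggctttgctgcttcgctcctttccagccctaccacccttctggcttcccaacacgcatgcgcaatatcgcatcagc
Maoa: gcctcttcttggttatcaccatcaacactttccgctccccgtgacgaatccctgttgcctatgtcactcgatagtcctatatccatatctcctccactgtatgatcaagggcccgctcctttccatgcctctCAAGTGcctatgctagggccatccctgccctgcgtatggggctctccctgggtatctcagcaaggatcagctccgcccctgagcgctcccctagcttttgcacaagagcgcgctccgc
The capital letters in the Maoa stretch are at chrX:16619580-16619585, and they begin 118 bases before the start site. Letters that match an E-box are a description of the sequence, and binding of Nhlh2 was not measured.

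The array of knockout 2 stood apart from the other 5. Its median signal was 9.0, against 68.4 in knockout 1, 51.3 in knockout 3 and 56.9 to 95.5 in the wildtype arrays. The signal ratio of the 3′ to the 5′ control probe set of Actb, a sign of RNA quality, was 274 in knockout 2, against 1.41 and 1.47 in the other knockouts and 1.38 to 1.56 in the wildtypes. The same ratio of Gapdh was 15.6 in knockout 2 and 0.698 to 0.838 in the other 5 arrays. Across all gene probe sets the log2 signals of knockout 2 correlated with those of the other arrays at r of 0.651 to 0.679, while all pairs among the other 5 lay between 0.932 and 0.960. The signals had not been brought to a common scale, so each array's trimmed mean was set to 200 before knockout and wildtype were compared. The pair differences and limma estimates of Ndn, Maoa and Pcsk1 are given with and without knockout 2. Of 8 measured retina markers, 8 were on in all 3 wildtype arrays. Of 10 lens genes, 0 were on in all 3, but their summed scaled signal was 6185 in wildtype 1, against 104 to 532 in the knockouts and 108 and 144 in the other wildtypes. Of 6 pigment epithelium genes, 5 were on, with sums of 3853 to 8810 in the knockouts and 4931 to 5852 in the wildtypes. Of 5 hypothalamus markers, 1 was on in all 3 wildtype arrays, the oxytocin gene Oxt, named after its values were seen, and their sum was 231 to 680 in the knockouts and 215 to 244 in the wildtypes. All these sums are of scaled signals, and the scaling multiplied the low signals of knockout 2 by 7.94. The highest lens sum was in wildtype 1, and the highest hypothalamus and pigment epithelium sums were in knockout 2. Their part in the results that follow was not tested.

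A gene counted as on when its probe set of the highest mean signal was above the array median in all 3 wildtype arrays. By this rule Ndn and Maoa were on and Pcsk1 was not, which is 2 of the 3 measured genes, beside 51.3% of all 12393 genes with a probe set. The signals of one probe set cannot be read against those of another as amounts of RNA, since probe sets differ in how strongly they bind, so the ranks given here describe the array only. In bulk retina, moreover, fewer cells of a type and less RNA per cell cannot be told apart.

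Ndn was 1 of the brightest genes on every array by the probe set that stands for it. The probe set 1455792_x_at, which stands for the gene, had a signal of 2136 in knockout 1, 474 in knockout 2 and 1643 in knockout 3, against 2563 in wildtype 1, 2658 in wildtype 2 and 1784 in wildtype 3. The mean in wildtype retina was 2335 ± 479 (SD, n = 3). Among the 12393 genes it ranked 222, 238 and 295 from the top in the knockouts and 198, 241 and 323 in the wildtypes, so that 1.59% to 2.60% of genes were brighter in a wildtype array. Its signal was 27.8 to 33.7 times the array median in wildtype retina. In rank by this probe set, therefore, knockout 2 lay among the other arrays, while its raw signal was the lowest. By another Ndn probe set, 1415923_at, it did not. That probe set lay at the 81.5 percentile of all gene probe sets in knockout 2, against 96.3 to 98.1 in the other arrays.

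The 8 Ndn probe sets fell into a bright and a dim set. The bright ones were 1455792_x_at, 1435383_x_at, 1415923_at, 1437853_x_at and 1435382_at, with signals of 32.6 to 2136 in the knockouts and 1377 to 2699 in the wildtypes. The dim ones were 1438939_x_at, 1438978_x_at and 1456575_at, with 1.3 to 16.1 in the knockouts and 2.0 to 15.6 in the wildtypes, and they lay below the 25th percentile in all 3 wildtype arrays. The ending _x_at marks probe sets with probes that can bind other transcripts as well, and it occurs in both sets. Where on the Ndn transcript each probe set lies was not analysed here.

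The bright Ndn probe sets gave similar signals within 5 of the arrays and not within knockout 2. The highest of the 5 was 1.19 to 1.45 times the lowest in those 5 arrays and 19.6 times the lowest in knockout 2. The signal of 1415923_at was 2079 in knockout 1, 32.6 in knockout 2 and 1797 in knockout 3, against 2431, 2699 and 1384 in wildtypes 1, 2 and 3. That of 1437853_x_at was 2090, 639 and 1864 in knockouts 1, 2 and 3, against 2470, 2493 and 1377 in wildtypes 1, 2 and 3. On signals as deposited, knockout 2 had 1.21% of the signal of its wildtype littermate by 1415923_at, 10.6% by 1435382_at, 10.8% by 1435383_x_at, 17.9% by 1455792_x_at and 25.6% by 1437853_x_at. These are ratios between arrays that differ in overall signal, with medians of 9.0 in knockout 2 and 95.5 in wildtype 2. After scaling, 4 of the 5 bright probe sets were higher in knockout 2 and 1415923_at was lower. The median log2 difference of all gene probe sets in this pair was itself 0.23 after scaling. The differences of 1435382_at (0.17) and 1435383_x_at (0.20), 2 of those 4, lay below that median. The level of Ndn in knockout 2 relative to its littermate therefore differed between probe sets.

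Maoa was above the array median, by less. The signal of its probe set 1428667_at was 156 in knockout 1, 14.0 in knockout 2 and 106 in knockout 3, against 170 in wildtype 1, 226 in wildtype 2 and 98.5 in wildtype 3. The wildtype mean was 165 ± 64.0 (SD, n = 3), and the signal was 1.73 to 2.37 times the array median in wildtype retina. It lay at the 66.1, 63.2 and 62.9 percentile of all gene probe sets in knockouts 1, 2 and 3, and at 65.5, 67.3 and 59.9 in wildtypes 1, 2 and 3. Wildtype 3 was just under the 60th percentile, so with that percentile as the threshold only Ndn was on.

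Pcsk1 had a signal near the bottom of the wildtype arrays. Its probe set 1421396_at gave 13.9 in knockout 1, 16.4 in knockout 2 and 4.8 in knockout 3, against 1.6 in wildtype 1, 26.4 in wildtype 2 and 7.4 in wildtype 3, and the groups overlapped. The wildtype mean was 11.8 ± 12.97 (SD, n = 3), with an SD larger than the mean. The percentiles were 24.3, 67.6 and 15.5 in knockouts 1, 2 and 3, and 4.71, 28.8 and 19.2 in wildtypes 1, 2 and 3. Only knockout 2, the array with the low median, placed it above the median, although its raw signal there was below that of its littermate. A low signal of 1 probe set does not show that Pcsk1 RNA was absent.

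**Figure D1:**
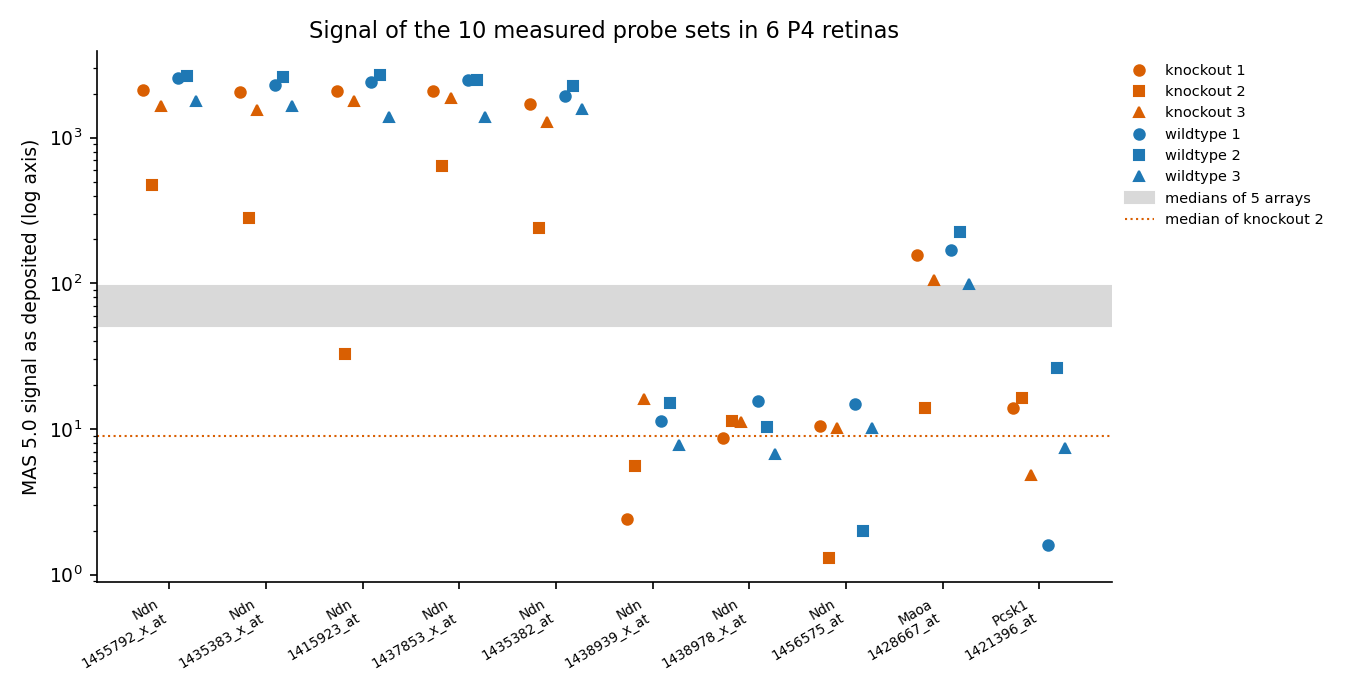
Signal of each of the 10 probe sets (horizontal axis) on each of the 6 arrays (vertical axis, MAS 5.0 signal as deposited, log scale), with knockouts left of wildtypes and 1 shape per littermate pair. The grey band spans the medians of the 5 arrays other than knockout 2, and the dotted line is the median of knockout 2, 9.0. The 5 bright Ndn probe sets lie above the median of their own array, with 1415923_at of knockout 2 under the grey band at 32.6, the 3 dim ones and Pcsk1 below the grey band, and Maoa above it except in knockout 2, whose Maoa signal of 14.0 is above its own median.

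The lists of related genes differed in how many of their genes were on in wildtype retina. Among genes of convertases and secretory granules, 13 of 19 measured were on. The on genes included Cpe, the carboxypeptidase that trims peptides after the convertases have cut, with a wildtype signal of 3591 ± 1282, the granule protein gene Chgb with 1657 ± 130, and Scg5, which encodes the 7B2 chaperone of Pcsk2, with 1150 ± 329 (SD, n = 3 each). Pcsk5, another convertase, had the lowest signal of that list, 22.2 ± 11.4, and was on in 0 of the 3 arrays. Over all genes 51.3% were on, and some members of this list were, like Pcsk1, not on.

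Among melanocortin and hypothalamic appetite genes, 5 of 18 measured were on. The brightest were Npy, which encodes the feeding peptide neuropeptide Y, with 513 ± 160, Stat3, which carries the leptin receptor's signal, with 237 ± 40.9, and Cartpt, the precursor of CART peptides, with 220 ± 65.7 (SD, n = 3 each). Trh, thyrotropin-releasing hormone, had the lowest signal, 2.37 ± 1.08. Pomc, the precursor that Pcsk1 cuts in the hypothalamus, was above the median in 1 of the 3 wildtype arrays, with signals of 72.8, 92.0 and 73.0. It was singled out for its link to Pcsk1 after its values were seen.

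Of 17 relatives of necdin and imprinted genes, 11 were on. The imprinted zinc finger gene Plagl1 had 2735 ± 394, Ube3a, a ubiquitin ligase gene of the same imprinted region as Ndn, had 1486 ± 442, and Grb10, an imprinted adaptor of insulin signalling, had 1431 ± 254, while Peg10 had 5.47 ± 3.10 (SD, n = 3 each). Of 12 genes of monoamine synthesis, transport and breakdown, beside Maoa, 1 was on, the aldehyde dehydrogenase Aldh2 with 189 ± 43.1. The noradrenaline transporter Slc6a2 had 30.5 ± 14.0, Pnmt, which makes adrenaline, had 27.4 ± 12.1, and the serotonin transporter Slc6a4 had 6.40 ± 5.24 (SD, n = 3 each). Of 14 helix-loop-helix partners, 12 were on, among them the E protein genes Tcf4 with 1912 ± 283 and Tcf12 with 1450 ± 241, and Id2, which encodes a partner that blocks DNA binding, with 791 ± 104 (SD, n = 3 each). Nhlh1, the closest relative of Nhlh2, was the lowest of that list. Its signal was 78.5, 29.3 and 62.6 in knockouts 1, 2 and 3, against 54.9, 65.6 and 66.7 in wildtypes 1, 2 and 3, and it was above the median in 1 of the 3 wildtype arrays.

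**Figure D2:**
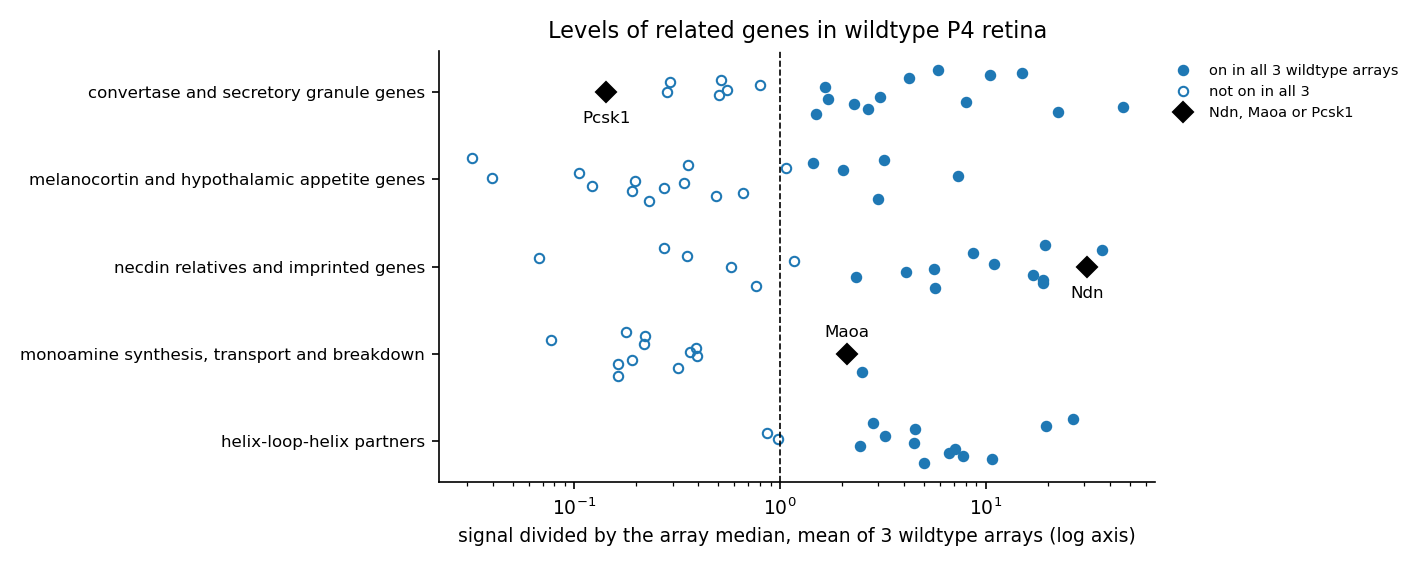
Mean over the 3 wildtype arrays of the signal divided by the array median (horizontal axis, log scale) for the measured genes of 5 lists (rows), with filled circles for genes on in all 3 arrays, open circles for the others and diamonds for Ndn, Maoa and Pcsk1. The dashed line is the array median. Most granule genes and helix-loop-helix partners (13 of 19 and 12 of 14) lie above it, and 1 of 12 monoamine genes beside Maoa does.

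Within littermate pairs, none of the 3 genes differed in the same direction in all 3 pairs. The differences are on a log2 scale, knockout minus wildtype, of the signal scaled to a trimmed mean of 200 with 1 added. Over all gene probe sets, 24.9% had the same sign in all 3 pairs, against 0 of the 10 probe sets described here. Of these 10, 8 measure Ndn on the same arrays, so they do not stand for 10 separate genes. Without pair 2 the share was 49.0% of all, against 2 of the 10, Maoa (higher in both knockouts) and the Ndn probe set 1435382_at (lower in both).

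For Ndn, 1455792_x_at had scaled signals of 2151, 3767 and 1948 in knockouts 1, 2 and 3, against 2333, 1993 and 1934 in wildtypes 1, 2 and 3. The differences were -0.12 in pair 1, 0.92 in pair 2 and 0.01 in pair 3. Outside knockout 2 the gene thus differed by at most 0.12 between littermates, by this probe set. The other bright probe sets gave -0.08, -0.02, -0.10 and -0.03 in pair 1 and 0.51, 0.03, 0.57 and -0.16 in pair 3, in the order 1415923_at, 1435383_x_at, 1437853_x_at and 1435382_at. In pair 2 the same 4 gave -2.96, 0.20, 1.44 and 0.17, so the probe sets of 1 gene pointed both ways in that pair. The dim probe sets 1438939_x_at, 1438978_x_at and 1456575_at gave -1.72, -0.64 and -0.32 in pair 1, and 1.10, 0.79 and 0.12 in pair 3.

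For Maoa, the scaled signals were 157, 111 and 125 in knockouts 1, 2 and 3, against 154, 170 and 107 in wildtypes 1, 2 and 3. The differences were 0.03 in pair 1, -0.60 in pair 2 and 0.23 in pair 3. For Pcsk1, the scaled signals were 14.0, 130 and 5.69 in knockouts 1, 2 and 3, against 1.46, 19.8 and 8.02 in wildtypes 1, 2 and 3. The differences were 2.61, 2.66 and -0.43 in pairs 1, 2 and 3. The value of pair 1 rests on raw signals of 13.9 and 1.6, and that of pair 2 on raw signals of 16.4 and 26.4, the first of which was multiplied by 7.94 in the scaling. The median of all gene probe sets was 0.23 in pair 2 and 0.02 or less in the other pairs.

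**Figure D3:**
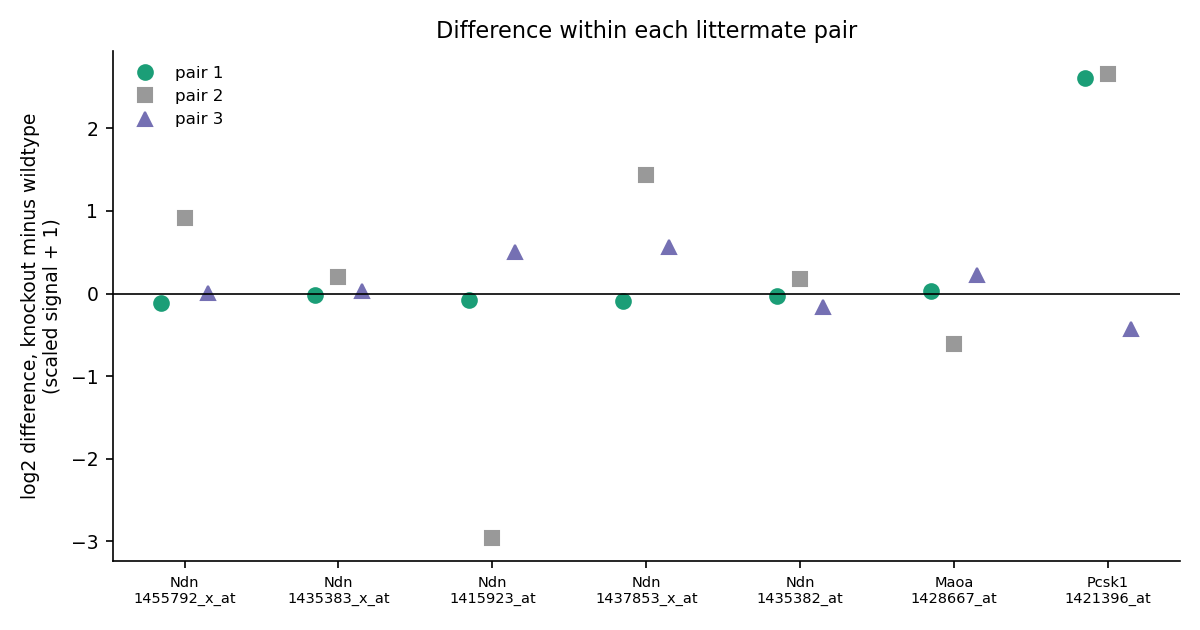
Log2 difference, knockout minus wildtype, within each littermate pair (vertical axis, scaled signal with 1 added) for the 5 bright Ndn probe sets, Maoa and Pcsk1 (horizontal axis), with 1 point per pair. The points of pairs 1 and 3 lie within 0.57 of 0 for Ndn and within 0.23 for Maoa, the Ndn points of pair 2 run between -2.96 and 1.44, and Pcsk1 has points on both sides of 0.

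Across all 22626 gene probe sets, limma called 0 at an adjusted p under 0.05 (0.0%), and 351 had an unadjusted p under that threshold. Without knockout 2, limma again called 0 (0.0%), with 522 at an unadjusted p under the threshold. A fit chosen after seeing the data used only pairs 1 and 3, with pair as a block, so without knockout 2 and wildtype 2. In it limma called 3 of 22626, and Ndn, Maoa and Pcsk1 were not among them (adjusted p = 0.9995 each). The 10 probe sets described here are therefore read by their estimates and intervals, which are wide with 3 arrays a group.

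The scaled signal of Ndn, by 1455792_x_at, averaged 2622 ± 997 in knockout and 2087 ± 215 in wildtype retinas (SD, n = 3 each). The log2 change in limma was 0.27 (SE 0.41, 95% interval -0.68 to 1.22, adjusted p = 0.841). Without knockout 2 it was -0.02 (SE 0.19, 95% interval -0.48 to 0.43, adjusted p = 0.9998), so the sign turned without that array. The bright probe set 1415923_at had a log2 change of -0.85 with knockout 2 and 0.16 without it, and 1437853_x_at had 0.64 with it and 0.23 without it. Those of 1435383_x_at and 1435382_at were 0.07 and -0.01 with knockout 2, and -7.5e-04 and -0.09 without it. Without knockout 2, the limma estimates of the 5 bright probe sets lay between -0.09 and 0.23.

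Maoa averaged a scaled signal of 131 ± 23.6 in knockout and 144 ± 32.8 in wildtype retinas (SD, n = 3 each). Its log2 change in limma was -0.12 (SE 0.37, 95% interval -0.97 to 0.74, adjusted p = 0.923) and -0.01 without knockout 2 (SE 0.27, 95% interval -0.63 to 0.62). Pcsk1 averaged 50.0 ± 69.6 in knockout and 9.76 ± 9.29 in wildtype retinas (SD, n = 3 each), with a log2 change of 1.61 (SE 1.27, 95% interval -1.34 to 4.57, adjusted p = 0.821). Without knockout 2 the Pcsk1 change was 0.37 (SE 0.97, 95% interval -1.89 to 2.64). The mean scaled signal of Pcsk1 in knockouts 1 and 3 was 9.84, against 9.76 in the wildtypes. The intervals of Ndn and Maoa without knockout 2 thus reached -0.48 and 0.43, and -0.63 and 0.62, on the log2 scale, and that of Pcsk1 was wider. For the bright Ndn probe sets 1415923_at and 1437853_x_at the upper limits in the same fit were 0.69 and 0.75.

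**Figure D4:**
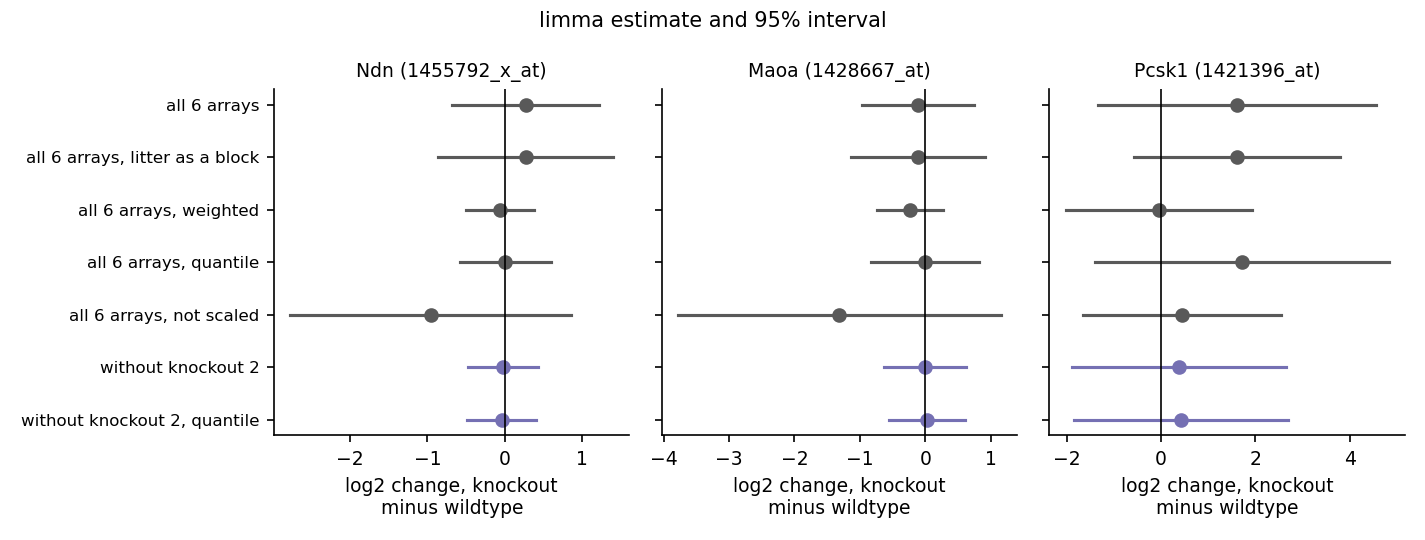
limma estimates (points) and 95% intervals (bars) of the log2 change, knockout minus wildtype (horizontal axes, with a range of their own in each panel), of Ndn, Maoa and Pcsk1 under 7 settings (rows), with fits without knockout 2 in purple. Every interval holds 0, and the interval of Ndn is -0.68 to 1.22 with all 6 arrays and -0.48 to 0.43 without knockout 2.

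The related genes were examined in the same limma fits, in which 0 of the members of each of the 5 lists were called. The median log2 change over all genes was 0.03 with knockout 2 and 0.01 without it. The medians were -0.01 for the convertase and granule list, 0.19 for the melanocortin and appetite list, -0.69 for the necdin and imprinted list, 0.32 for the monoamine list and -0.61 for the helix-loop-helix list. Without knockout 2 the same medians were -0.06, -0.02, -0.05, 0.04 and 0.02, and all but that of the convertase and granule list lay nearer to the median of all genes. Without knockout 2 the changes of the on genes of these lists ran from -0.62 in Ldb2, which encodes a cofactor of LIM proteins, to 0.64 in Cartpt, both named for their values after these were seen and neither called (adjusted p = 0.9998 in limma). Ldb2 had -0.64 in pair 1 and -0.50 in pair 3, and Cartpt had 0.58 in pair 1 and 0.81 in pair 3. Nhlh1 had 0.97 with knockout 2 (adjusted p = 0.821 in limma) and 0.44 without it (SE 0.32, adjusted p = 0.9998). Its differences were 0.65 in pair 1, 2.22 in pair 2 and 0.04 in pair 3. After scaling it was thus higher in every pair, beside 13.9% of all gene probe sets. As deposited it was higher in the knockout in pair 1 only, and pair 3 had raw signals of 62.6 in knockout 3 and 66.7 in wildtype 3. The pair 2 value rests on raw signals of 29.3 in knockout 2 and 65.6 in wildtype 2, the first of which was multiplied by 7.94.

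The probe sets most like those of the on genes were sought by the root mean square distance between log2 profiles, each centred on its own mean over the 6 arrays. For Ndn they were Tesk2 at 0.039, Asns at 0.042 and Dus1l at 0.054, and for Maoa they were Phkb at 0.050, Atg4b at 0.052 and Psmd5 at 0.052. Over the 5 arrays without knockout 2 they were Anapc5 at 0.019, Trim26 at 0.024 and Man2b1 at 0.028 for Ndn, and Pafah1b2 at 0.019, Dhx36 at 0.031 and Rnf167 at 0.034 for Maoa. The 3 nearest genes of each differed wholly between the 6 and the 5 arrays. These distances describe the arrays and were not tested.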

How the data were processed

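Retinal RNA of 3 Nhlh2 knockout and 3 wildtype mice was measured on 6 Affymetrix Mouse 430A 2.0 arrays. The authors ran MAS 5.0 on the raw data and deposited the resulting linear intensity of every probe set, and its version and scaling target are not given in the sources used here. Present calls were not used. Of 22690 probe sets, 64 controls were left out. A platform annotation table gave 1 symbol for 20380 gene probe sets, several for 691 and none for the other 1555, which it does not hold. Arrays have no read depth, so their number limits the precision.

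Each array's 2% trimmed mean was set to 200, 1 was added because of 3 zero signals, and log2 values were tested with limma 3.58.1 in R 4.3.3 (lmFit, eBayes with an intensity trend), with Benjamini-Hochberg adjustment over all 22626 gene probe sets and a threshold of 0.05. There was no filter and no term for litter. The methods of the study name no test between genotypes. A gene is represented by its probe set of the highest mean signal over the 6 arrays. Other steps ran in Python 3.11.15. The fit was tested on simulated data, drawn with the wildtype spread on every array, so an array like knockout 2 was not simulated. The paper names 3 P4 mice for its 3 P4 retina arrays, which are the wildtype arrays here. It does not describe the knockout arrays, and 1 mouse per array is not stated outright, so p-values measure the spread between these samples.

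The series design states that knockout and wildtype samples of the same number are littermates, which is where the pairing comes from. The correlation of deviations from the group means was 0.0758, -0.0456 and 0.124 in pairs 1, 2 and 3, against 0.143 for wildtype 2 and knockout 1. Without knockout 2 it was 0.125 in pair 1 and 0.267 in pair 3, against 0.191 for wildtype 2 and knockout 1. With only knockouts 1 and 3 left, the deviations of knockout 3 are those of knockout 1 with the sign reversed. These values are therefore tied to each other and are not separate checks of the pairs. With litter as a block, the adjusted p of Ndn, Maoa and Pcsk1 was 0.873, 0.940 and 0.829, and no call changed.

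Genes were named by a rule: the members, Nhlh1 and Nhlh2, the 3 genes of the highest and the 1 of the lowest mean wildtype signal of each related list, any with an adjusted p under 0.05, and the 3 nearest profiles of each member that was on. Marker lists for amacrine cells (6 of 8 measured on) and ganglion cells (6 of 6 on) were checked beside the other marker lists. The members and the lists were chosen with earlier results of these data known. Promoters are RefSeq sequences of GRCm38.p6, matched by symbol for 4 of the 5 genes. The alternatives were other scalings, constants, filters, weights, thresholds, probe set choices, the block and leaving out each array.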

Additional observations from a re-analysis of the deposited data

How the results depend on the processing

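Under every alternative run for the genotype comparison limma called 0 of the gene probe sets, except 1 that was chosen after seeing the data. With only pairs 1 and 3, so without knockout 2 and wildtype 2, and with pair as a block, limma called 3. All were lower in knockout retina, and none was Ndn, Maoa or Pcsk1. They were Igfbp7 (-1.77, adjusted p = 0.00884), Nme1 (-1.53, adjusted p = 0.00884) and Cryba1 (-6.38, adjusted p = 0.00975), named after their values were seen. Cryba1 is a lens gene with a signal of 1889 in wildtype 1 and 1.2 in knockout 1. With all 6 arrays, the replicate block called 0.

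The direction of the Ndn change turned under 5 of 17 alternatives. It was -0.96 on signals as deposited, -0.063 with array weights, which gave knockout 2 a weight of 0.0699, and -0.023 without knockout 2. With settings chosen after seeing the data it was -0.040 without knockout 2 on quantile-normalized values and -0.053 with the block of pairs 1 and 3. That of Maoa turned under 5 of 17: 0.030 with 75th percentile scaling, with and without the replicate block, 0.016 without wildtype 2, and, without knockout 2, 0.023 on quantile-normalized values and 0.13 with the block. That of Pcsk1 turned under 1 of 16, to -0.054 with array weights, and the filter on low signals removed it. Leaving out 1 array at a time moved the Ndn change between -0.023 and 0.45 and the Maoa change between -0.31 and 0.016, and moved the Pcsk1 change between 0.37 without knockout 2 and 2.52 without knockout 3. The adjusted p stayed between 0.549 and 0.9999 for all 3 genes. The cause of these turns was not tested.

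At the 60th percentile 1 gene, Ndn, was on, and 2 were on under the other thresholds and probe set choices. Without pair 1, 1 of 3 genes had the same sign in every remaining pair (Ndn, beside 52.6% of all gene probe sets). The number was 1 without pair 2 (Maoa, beside 49.0%) and 1 without pair 3 (Pcsk1, beside 48.2%). With 75th percentile or quantile scaling of all pairs it was 0. On signals as deposited it was 1 (Ndn, lower in the knockout), beside 39.1% of either sign and 37.5% lower in every pair. The medians of all gene probe sets as deposited were -0.14, -2.91 and -0.10 in pairs 1, 2 and 3. Of the 10 probe sets, 1 had the same sign in all pairs with quantile scaling and 3 on signals as deposited.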
